A study of Mus musculus with 10 samples.

Results

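The 45 genes described here encode the enzymes that build, sulfate and cut glycosaminoglycan chains, together with the glypicans and syndecans that carry such chains at the cell surface. They are listed by name from what is known of the pathway, but the list was drawn up with earlier results of these data known, and they make up 45 of the 48471 genes to which the transcripts in the files could be assigned. They fall into 4 enzymes of the shared linker, 24 heparan sulfate genes (13 for synthesis, 3 for editing outside the cell and 8 core proteins), 11 chondroitin and dermatan sulfate enzymes and 6 hyaluronan genes. Of the 45, 43 passed the filter on low counts. Hs3st3a1, a heparan sulfate 3-O-sulfotransferase, and Chst3, a chondroitin 6-O-sulfotransferase, did not.

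The libraries came from myofibroblastic cancer-associated fibroblasts (myCAFs) of mouse pancreatic ductal adenocarcinoma, in C57BL/6J animals described as male. All tumours grew from KPC T-LOH organoids, which are cultured mouse pancreatic cancer cells, placed orthotopically, that is, in the pancreas of the host. The 5 CD90-negative and 5 CD90-positive libraries form 5 tumour pools, with both fractions of a pool carrying the same animal numbers. CD90 is a surface protein encoded by Thy1, and apart from the CD90 sort both fractions share tumour model, strain and sex. Titles name 4, 1, 2, 3 and 1 animals for pools 1 to 5, or 11 in all, while the design text counts 5 mice, so n is given as pools. No source used here gives the age of the hosts or the other markers of the myCAF gate.

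Glycosaminoglycans are long unbranched sugar chains. Heparan sulfate and chondroitin or dermatan sulfate are assembled on a serine of a core protein, start from the same short linker and are then sulfated at set positions, whereas hyaluronan is unsulfated, has no core protein and is spun out through the plasma membrane by its synthases. The sulfate pattern of heparan sulfate decides which growth factors and morphogens a cell surface binds, and extracellular endosulfatases can remove 6-O-sulfate after the chain is finished. Fibroblasts are the main source of hyaluronan and of chondroitin sulfate matrix in the dense stroma for which pancreatic carcinoma is known.

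Each library held between 11.7 and 47.7 M estimated counts (M for mega), and between 3.71 and 28.5 M once mitochondrial and non-coding genes were set aside. Mitochondrial rRNA took 35.6% to 84.4% of the counts of CD90-negative libraries and 10.5% to 44.8% of those of CD90-positive libraries, and was higher in the CD90-negative library of 5 of 5 pools (exact paired permutation test, two-sided, p = 0.0625, the smallest that 5 pools allow, and 0.141 after adjustment over 9 library measures). Thy1, the check of the sort, was lower in the CD90-negative library of 5 of 5 pools (log2 fold -3.50, SE 0.50, adjusted p = 0.00561), with 2.07 to 16.0 CPM (counts scaled to the TMM-adjusted library size) in CD90-negative libraries and 39.2 to 117 CPM in CD90-positive libraries. Fibroblast markers summed to 4052 to 20455 CPM in CD90-negative libraries, against 32400 to 53864 CPM in CD90-positive libraries, and 8 of 9 were called lower, with a median log2 fold of -2.24. Cancer epithelial markers summed to 711 to 2995 CPM in CD90-negative libraries, against 179 to 1609 CPM in CD90-positive libraries, and 6 of 11 were called higher. None of the 9 fibroblast and 11 epithelial markers was at 0 throughout. Endothelial markers summed to 32.2 to 140 CPM in CD90-negative libraries and 25.0 to 36.6 CPM in CD90-positive libraries, with 3 of 6 called higher (Pecam1, Cdh5 and Tie1). Emcn and Egfl7 had log2 folds of 2.67 and 1.72 and were not called (adjusted p = 0.312 and 0.340). Kdr went the other way, with -0.70, and was not called (adjusted p = 0.0780, unadjusted p under 0.05). The endothelial sum was higher in the CD90-negative library of 3 of 5 pools. Of immune markers, 0 of 6 tested were called by edgeR, while 1 had an unadjusted p under 0.05 and 1 was called by DESeq2. All 6 had positive log2 folds, from 0.06 to 2.41. The largest was that of C1qa, higher in the CD90-negative library of 5 of 5 pools (adjusted p = 0.0855). The 9 listed immune markers summed to 9.35 to 28.4 CPM in CD90-negative and 7.08 to 13.2 CPM in CD90-positive libraries. This sum was higher in the CD90-negative library of 3 of 5 pools. Pericyte markers (10.6 to 133 CPM in CD90-negative and 29.9 to 54.4 CPM in CD90-positive libraries) had 0 of 5 called by edgeR, with 4 at an unadjusted p under 0.05 and 4 called by DESeq2. Directions were mixed. Rgs5 and Mcam had log2 folds of 3.14 and 0.84, and Kcnj8, Notch3 and Abcc9 had -1.90, -1.65 and -1.21. The pericyte sum was lower in the CD90-negative library of 4 of 5 pools. Its 133 CPM was in pool 2, with the other CD90-negative libraries at 10.6 to 20.4 CPM. Mesothelial markers were split, with a median log2 fold of -1.64 over 4 tested. Their sum was 152 to 243 CPM in CD90-negative libraries and 165 to 282 CPM in CD90-positive libraries. It averaged 196 and 222 CPM, of which Msln alone gave 126 and 56.4 CPM, so the sum hides opposite directions. Msln was called higher (adjusted p = 0.00774), whereas Upk3b, Wt1 and Lrrn4 had log2 folds of -2.04, -1.96 and -1.32 and were not called (adjusted p = 0.133, 0.0740 and 0.151, each with an unadjusted p under 0.05), and Krt5 was at 0 in every library. Acinar markers summed to 2.04 to 33.4 CPM in CD90-negative libraries and 1.26 to 3.83 CPM in CD90-positive libraries. Of 2 tested, Ctrb1 was called higher (log2 fold 3.63) and Cela1 had -0.31 (adjusted p = 0.853). The part of these differences in the results below was not tested. In bulk RNA, fewer cells of a type and less RNA per cell cannot be told apart.

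The CD90-negative library of pool 3 stood apart from the other CD90-negative libraries. It held the most fibroblast marker RNA (20455 CPM), the least epithelial marker RNA (711 CPM) and the lowest mitochondrial rRNA share (35.6%) of its group. Results are therefore given also without pool 3, and without pools 4 and 5, since the CD90-negative library of pool 4 and the CD90-positive library of pool 5 held the fewest nuclear protein-coding counts of their groups (3.71 and 4.57 M). The CD90-negative library of pool 2 differed in other markers. It held the most endothelial and pericyte marker RNA of its group (140 and 133 CPM). The other CD90-negative libraries held 32.2 to 56.8 and 10.6 to 20.4 CPM.

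Glycosaminoglycan genes were more often lower than higher in CD90-negative libraries. Of the 43 genes tested, 15 were called lower (34.9%) and 1 higher, the hyaluronan synthase Has3, by edgeR's quasi-likelihood test with the pool as a block (Benjamini-Hochberg adjusted p under 0.05 over 15378 genes). Over all genes tested, 7.05% were called lower and 5.83% higher. The median log2 fold of the 43 was -0.70, beside 0.04 over all genes, and log2 folds are throughout CD90-negative over CD90-positive. All 15 genes called lower were lower in the CD90-negative library of 5 of 5 pools. In 9 of the 43, every CD90-negative library lay below every CD90-positive library, as did 4.62% of all genes tested, and 8 of these 9 were called. Among the 27 genes not called, adjusted p ran from 0.0552 to 0.917.

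Counts of called genes moved with the model and the libraries used. Without the pool as a block, 8 of the 43 were called lower and 0 higher. Leaving out pool 3 gave 18 called lower and 0 higher, 15 of them shared with the 16 calls of all pools, and leaving out pool 1 gave 5 called lower (Hs6st2, Sulf1, Sulf2, Gpc1 and Chst11). Without pools 4 and 5, 2 of the 43 were called, Sulf1 and Gpc1. Calls over all genes moved as well, from 1980 in the main fit to 541 in this smallest set of pools. They were 965 with no block, 2019 when pool 3 was dropped and 675 when pool 1 was dropped. Whether the 43 were still called more often than other genes in these fits was not tested. With the mitochondrial rRNA share added to the model, which differs between the groups in the same direction in every pool, edgeR called 0 of the 15378 genes and 882 had an unadjusted p under 0.05. All 16 called genes kept their direction in that fit, but the share and the sort could not be told apart with 5 pools.

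**Figure D1:**
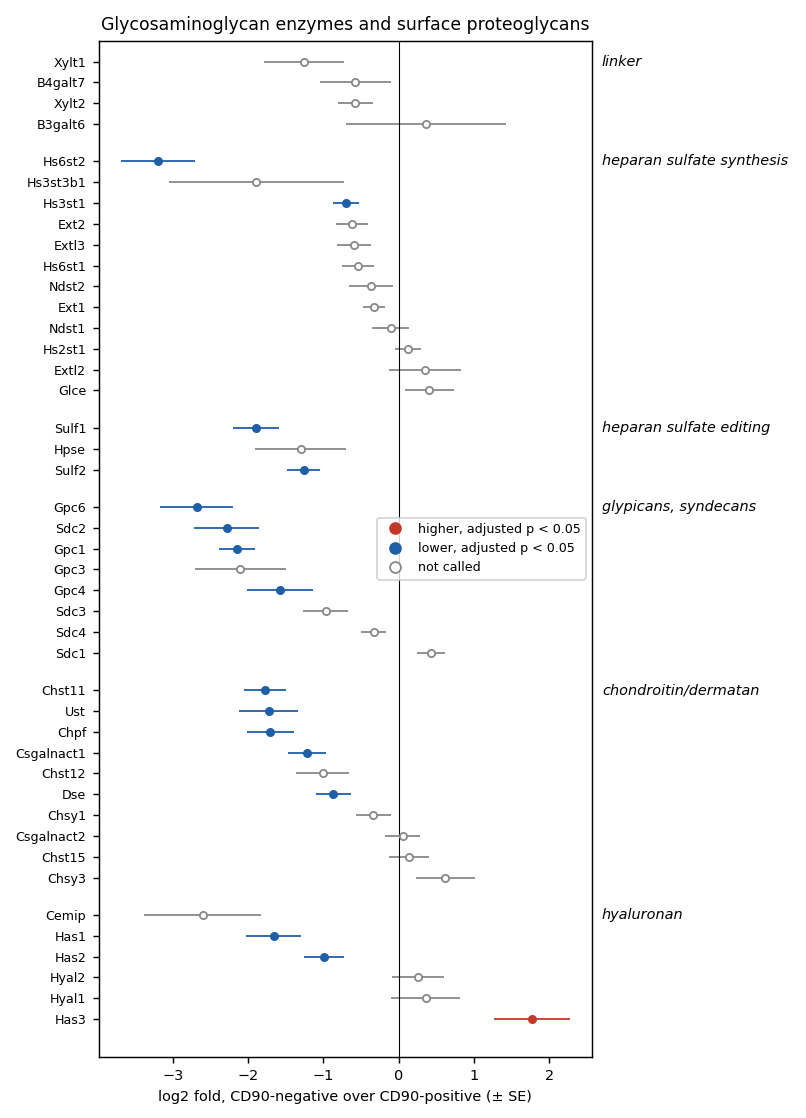
Log2 fold (CD90-negative over CD90-positive, ± SE, 5 pools) of the 43 glycosaminoglycan genes tested, grouped by role. Filled points passed adjusted p under 0.05: 15 lie to the left of 0 and Has3, with 1.76, to the right.

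Linker synthesis showed 0 of 4 genes called by edgeR, with 2 at an unadjusted p under 0.05 and 0 called by DESeq2 or limma-voom. The class median was -0.58. Xylt1 and Xylt2 are the xylosyltransferases that attach the first sugar to the core protein, and Xylt2 held 78.3% ± 11.4 of their TPM (length-scaled transcript abundance, summed per gene and rescaled over nuclear protein-coding genes) in CD90-negative and 76.8% ± 13.2 in CD90-positive libraries (SD, n = 5 each). Xylt2 had 11.2, 9.66, 10.5, 15.2 and 9.12 CPM in the CD90-negative libraries of pools 1 to 5, against 16.1, 20.1, 13.2, 14.7 and 18.3 CPM in the CD90-positive libraries. It was lower in 4 of 5 pools, with pool 4 the exception, and missed the threshold (log2 fold -0.57, SE 0.24, adjusted p = 0.154). Xylt1 had 2.13, 1.44, 7.11, 2.99 and 4.10 CPM in CD90-negative libraries, against 6.85, 10.3, 6.33, 13.4 and 3.54 CPM in CD90-positive libraries. The groups overlapped, and pools 3 and 5 had the slightly higher value in their CD90-negative library (log2 fold -1.26, SE 0.53, adjusted p = 0.160). B4galt7, which adds the first galactose, had a log2 fold of -0.58 (adjusted p = 0.493), and B3galt6, which adds the second galactose, one of 0.36 (adjusted p = 0.868).

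Heparan sulfate synthesis was represented by 12 tested genes, of which 2 were called lower, the sulfotransferases Hs6st2 and Hs3st1 of late steps. The class median was -0.45. Ext1 and Ext2, the paired subunits of the chain polymerase, had log2 folds of -0.33 and -0.62 (adjusted p = 0.187 and 0.0884). Extl3, which starts the heparan sulfate chain, had -0.59, and Extl2, which can end it, 0.35. Ndst1 and Ndst2, which replace acetyl by sulfate on glucosamine, had -0.11 and -0.37. Glce, the epimerase that turns glucuronic into iduronic acid, had 0.40, and Hs2st1, which sulfates iduronic acid, 0.12. Ndst1 averaged 66.5 ± 25.8 CPM in CD90-negative and 67.6 ± 11.3 CPM in CD90-positive libraries (SD, n = 5 each).

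Hs6st2 had the largest log2 fold of the 43 genes in either direction. It encodes one of the sulfotransferases that add 6-O-sulfate to glucosamine. Its CPM was 2.38, 1.61, 6.32, 2.78 and 2.22 in the CD90-negative libraries of pools 1 to 5, against 22.0, 33.2, 12.3, 27.9 and 34.1 in the CD90-positive libraries. No CD90-negative library reached the lowest CD90-positive one, and in pool 3 both fractions were nearest to each other. The log2 fold was -3.19 (SE 0.49, adjusted p = 0.00567), a 9.14-fold lower fitted level. It was -3.71 without pool 3, and lost its call without pools 4 and 5 (-2.89, adjusted p = 0.0823). The paralog Hs6st1 averaged 19.7 ± 6.32 CPM in CD90-negative and 27.7 ± 4.68 CPM in CD90-positive libraries (log2 fold -0.54, adjusted p = 0.136). On the TPM scale, Hs6st2 made up 16.5% ± 4.97 of the summed 6-O-sulfotransferase level in CD90-negative libraries and 49.8% ± 8.21 in CD90-positive libraries, with ranges of 9.45% to 23.2% and 39.3% to 56.0%. The sum itself was 31.0 ± 12.9 TPM in CD90-negative and 65.6 ± 10.2 TPM in CD90-positive libraries.

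Hs3st1, which places the rare 3-O-sulfate that antithrombin recognises, had 15.8, 15.3, 28.1, 13.9 and 27.8 CPM in CD90-negative libraries, against 23.4, 32.6, 38.7, 23.3 and 43.1 CPM in CD90-positive libraries. The groups overlapped through pools 3 and 5, yet each pool showed the lower value in its CD90-negative library (log2 fold -0.70, SE 0.17, adjusted p = 0.0248). Leaving out pool 1, 2 or 4 ended this call, with log2 folds of -0.73, -0.60 and -0.72 and adjusted p of 0.0838, 0.0815 and 0.0633. Hs3st3b1 stayed at or under 1.18 CPM in every library (log2 fold -1.89, SE 1.16). Hs3st3a1 and Hs3st3b1 are near-identical over their catalytic part, so how reads were divided between them is uncertain.

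**Figure D2:**
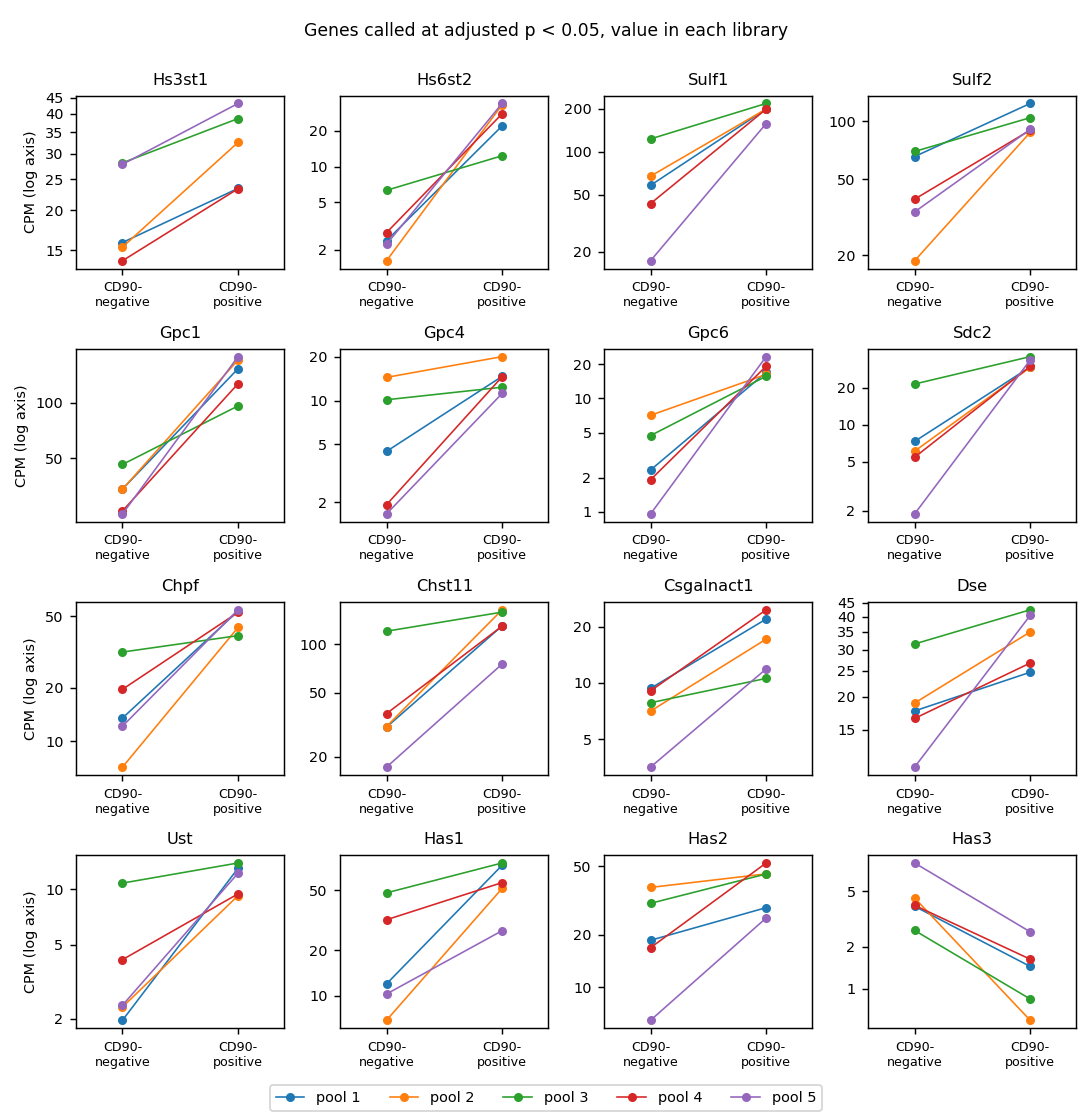
CPM (log axis) of the 16 called genes in each CD90-negative library (left) and its CD90-positive partner (right), one line per pool. All lines rise to the right except those of Has3. The CD90-negative library of pool 3 (green) is the highest of its group for 11 of the 15 genes called lower, a count not made over all genes.

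Editing of finished heparan sulfate was represented by 3 genes, of which 2 were called lower, the extracellular endosulfatases Sulf1 and Sulf2. Both strip 6-O-sulfate from chains on the cell surface and in the matrix. Sulf1 had 58.2, 67.4, 123, 43.4 and 17.3 CPM in the CD90-negative libraries of pools 1 to 5, against 199, 198, 217, 198 and 157 CPM in the CD90-positive libraries. The CD90-positive values lay close together, the CD90-negative ones spread over a wide range, and the groups did not overlap (log2 fold -1.89, SE 0.30, adjusted p = 0.00659). Its call held in each fit that left out 1 pool, with log2 folds from -2.17 to -1.61, and without pools 4 and 5 (-1.42, adjusted p = 0.0268).

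Sulf2 had 65.5, 18.8, 69.7, 39.3 and 33.7 CPM in CD90-negative libraries, against 124, 87.5, 104, 89.9 and 90.8 CPM in CD90-positive libraries. Again the groups were separate, with pool 2 lowest (log2 fold -1.26, SE 0.22, adjusted p = 0.00664; without pools 4 and 5, -1.27 and adjusted p = 0.100). Of its 5871 exon bases, 154 are shared with Ncoa3 on the other strand, so reads there may belong to either gene. In summed TPM the endosulfatases reached 148 ± 66.0 in CD90-negative libraries and 391 ± 52.3 in CD90-positive libraries, and Sulf1 held 54.5% ± 14.8 and 66.4% ± 3.33 of that sum. Hpse, the heparanase that cuts the chain, was lower in 5 of 5 pools but did not pass the test (1.82 ± 1.07 CPM in CD90-negative and 4.14 ± 2.10 CPM in CD90-positive libraries, log2 fold -1.30, adjusted p = 0.204).

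Core proteins gave 4 of 8 called lower, with a class median of -1.84. Glypicans, which are held in the membrane by a lipid anchor, supplied 3 of the 4. Gpc1 had 33.9, 33.8, 46.1, 25.7 and 24.8 CPM in CD90-negative libraries, against 153, 171, 96.2, 127 and 179 CPM in CD90-positive libraries. The highest CD90-negative value and the lowest CD90-positive value both belonged to pool 3, and they did not meet (log2 fold -2.15, SE 0.24, adjusted p = 0.00185, a 4.44-fold lower fitted level). Without pool 3 the log2 fold was -2.42, and without pools 4 and 5 it was -1.90 (adjusted p = 0.0219).

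Gpc6 had 2.34, 7.11, 4.71, 1.92 and 0.961 CPM in the CD90-negative libraries of pools 1 to 5 and 17.0, 16.3, 15.7, 19.2 and 23.4 CPM in the CD90-positive libraries. Its groups were separate in all pools (log2 fold -2.68, SE 0.49, adjusted p = 0.00831), although the call ended without pool 1 (-2.63, adjusted p = 0.0514). Gpc4 had 4.48, 14.4, 10.1, 1.92 and 1.66 CPM in CD90-negative libraries and 14.7, 20.1, 12.4, 14.6 and 11.2 CPM in CD90-positive libraries. The CD90-negative library of pool 2 lay inside the CD90-positive range (log2 fold -1.58, SE 0.44, adjusted p = 0.0443). Leaving out pool 1, 4 or 5 ended the call, with adjusted p of 0.156, 0.122 and 0.107. Gpc3 just missed the threshold (5.39 ± 5.42 CPM in CD90-negative and 13.6 ± 5.34 CPM in CD90-positive libraries, log2 fold -2.10, adjusted p = 0.0552), and was called without pool 3 (-2.58, adjusted p = 0.0284). Summed over the 4 genes, glypicans reached 72.9 ± 37.3 TPM in CD90-negative libraries and 243 ± 28.9 TPM in CD90-positive libraries. Gpc1 held 60.6% ± 15.7 of that sum in CD90-negative libraries and 60.7% ± 3.84 in CD90-positive libraries.

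Syndecans, which span the membrane, behaved unevenly. Sdc2 was called lower, with 7.33, 6.10, 21.5, 5.45 and 1.88 CPM in CD90-negative libraries, against 29.6, 29.4, 35.9, 29.9 and 33.7 CPM in CD90-positive libraries. The CD90-positive libraries were nearly level, and pool 3 held the highest CD90-negative value (log2 fold -2.28, SE 0.43, adjusted p = 0.0114; without pool 1, -2.37 and adjusted p = 0.0522). Sdc3 was lower in 5 of 5 pools without passing the test (10.6 ± 3.86 CPM in CD90-negative and 20.4 ± 6.12 CPM in CD90-positive libraries, log2 fold -0.97, adjusted p = 0.0617), and passed it without pool 2 (-1.20, adjusted p = 0.0463) and without pool 3 (-1.15, adjusted p = 0.0450). Sdc4, the most abundant of all 45 genes on the TPM scale, had 510 ± 104 TPM in CD90-negative libraries and 666 ± 122 TPM in CD90-positive libraries (log2 fold of counts -0.33, adjusted p = 0.224). Sdc1, which is also the main syndecan of epithelia, had 360 ± 50.9 TPM in CD90-negative libraries and 242 ± 64.8 TPM in CD90-positive libraries (log2 fold of counts 0.43, adjusted p = 0.182). Its share of the syndecan sum was 40.3% ± 7.37 in CD90-negative and 24.3% ± 6.40 in CD90-positive libraries, higher in 4 of 5 pools. The syndecan sum was 901 ± 79.0 TPM in CD90-negative and 999.7 ± 105 TPM in CD90-positive libraries.

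**Figure D3:**
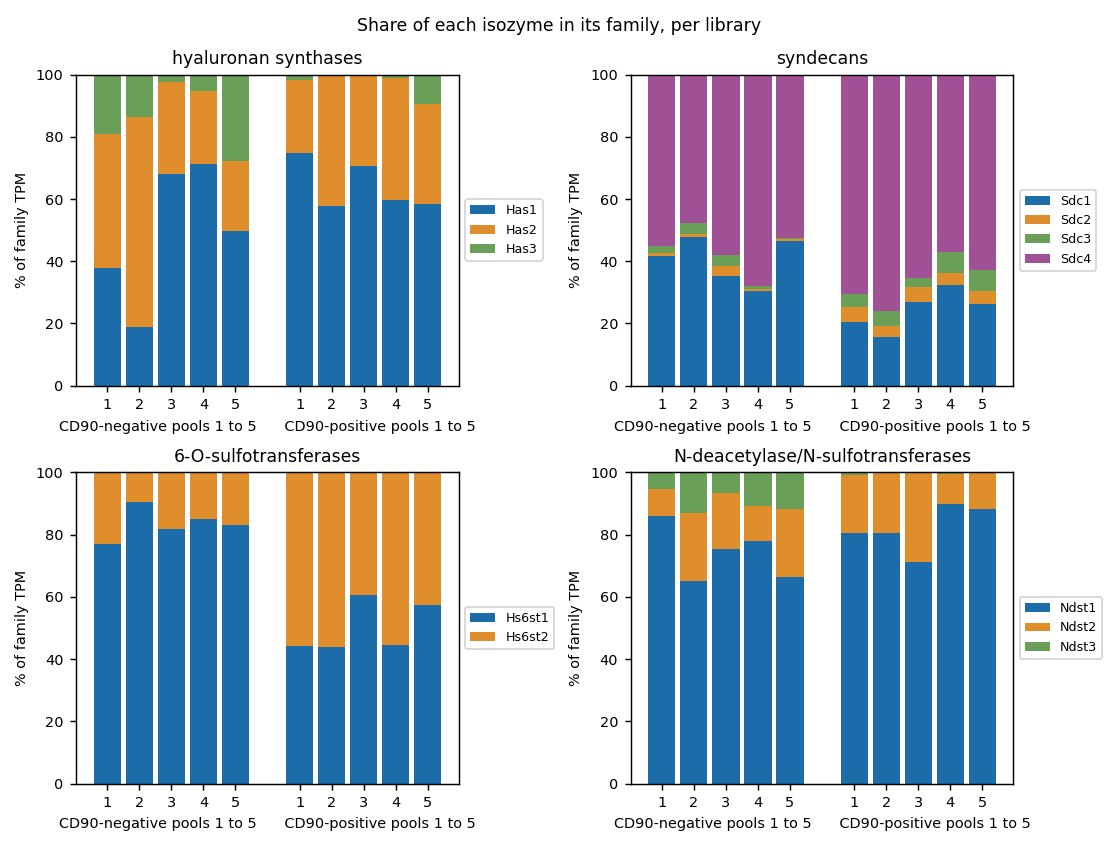
Share of each isozyme or paralog in the summed TPM of its family, for each library, with CD90-negative pools 1 to 5 left of CD90-positive pools 1 to 5 in each panel. Hs6st2 falls to 9.45% to 23.2% in CD90-negative libraries, against 39.3% to 56.0% in CD90-positive libraries, and Has3 and Ndst3 take larger shares in the CD90-negative library of every pool.

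Chondroitin and dermatan sulfate enzymes included 5 called lower among the 10 tested, with a class median of -0.94. Chpf, a cofactor of the chondroitin polymerase, had 13.5, 7.17, 31.6, 19.5 and 12.2 CPM in CD90-negative libraries, against 53.6, 43.4, 39.0, 52.7 and 54.4 CPM in CD90-positive libraries. The groups did not overlap, and were nearest in pool 3 (log2 fold -1.70, SE 0.31, adjusted p = 0.00876; without pool 1, -1.63 and adjusted p = 0.0530). Csgalnact1, which adds the first N-acetylgalactosamine and so commits a linker to chondroitin, had 9.36, 7.07, 7.84, 9.08 and 3.55 CPM in CD90-negative libraries and 22.0, 17.2, 10.6, 24.6 and 11.9 CPM in CD90-positive libraries. Its groups were also separate (log2 fold -1.22, SE 0.25, adjusted p = 0.0126; without pool 1, -1.22 and adjusted p = 0.0673). The paralog Csgalnact2 had a log2 fold of 0.05 (adjusted p = 0.917). Csgalnact1 held 48.5% ± 13.8 of the TPM of the pair in CD90-negative libraries and 67.9% ± 13.6 in CD90-positive libraries, while their sum was 57.9 ± 19.9 TPM in CD90-negative and 58.2 ± 12.0 TPM in CD90-positive libraries. Counts and TPM differed here. Csgalnact1 averaged 7.38 and 17.3 CPM, and Csgalnact2 12.9 and 13.0 CPM, in CD90-negative and CD90-positive libraries. In TPM, Csgalnact1 overlapped between groups (16.9 to 61.8 in CD90-negative and 21.8 to 54.1 in CD90-positive libraries). The level TPM sum is thus not shown by the counts.

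Chst11, which sulfates chondroitin at the 4-O position, had 30.5, 30.8, 120, 37.1 and 17.3 CPM in CD90-negative libraries, against 130, 163, 158, 129 and 75.2 CPM in CD90-positive libraries. Pool 3 alone made the groups overlap, since its CD90-negative library was above the CD90-positive library of pool 5 (log2 fold -1.78, SE 0.28, adjusted p = 0.00584). Without pool 3 the log2 fold was -2.11 and the groups were separate. Chst12, the related 4-O-sulfotransferase, was lower in 5 of 5 pools but not called (log2 fold -1.01, adjusted p = 0.0960; without pool 3, -1.28 and adjusted p = 0.0446).

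Dermatan sulfate differs from chondroitin sulfate in its iduronic acid, which Dse makes by epimerisation. Dse had 17.7, 18.9, 31.5, 16.6 and 10.9 CPM in CD90-negative libraries and 24.7, 35.0, 42.4, 26.7 and 40.4 CPM in CD90-positive libraries. Only the CD90-negative library of pool 3 reached into the CD90-positive range (log2 fold -0.87, SE 0.23, adjusted p = 0.0364). Leaving out pool 1, 2, 4 or 5 ended the call, with log2 folds of -0.97, -0.86, -0.95 and -0.65 and adjusted p of 0.0841, 0.0924, 0.0748 and 0.0537. Ust, which sulfates the uronic acids of these chains at the 2-O position, had 1.96, 2.31, 10.8, 4.17 and 2.36 CPM in CD90-negative libraries and 13.0, 9.22, 13.8, 9.42 and 12.2 CPM in CD90-positive libraries. Here too the CD90-negative library of pool 3 lay inside the CD90-positive range (log2 fold -1.72, SE 0.39, adjusted p = 0.0188). The call ended without pool 1 or pool 2 (adjusted p = 0.0927 and 0.0559). The polymerases Chsy1 and Chsy3 had log2 folds of -0.34 and 0.62, and Chst15, which adds a further sulfate to a 4-O-sulfated unit, 0.14.

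Hyaluronan genes moved in both directions. Of the 6 tested, 2 synthases were called lower and 1 synthase higher. Has1 had 12.0, 6.91, 48.1, 31.9 and 10.3 CPM in CD90-negative libraries, against 73.2, 51.4, 75.8, 56.2 and 27.0 CPM in CD90-positive libraries. CD90-negative libraries of pools 3 and 4 were above the CD90-positive library of pool 5, but every pool had the lower value in its CD90-negative library (log2 fold -1.66, SE 0.36, adjusted p = 0.0214; without pool 1, -1.41 and adjusted p = 0.0792). About 50.9% of Has1 counts in CD90-negative libraries and 50.5% in CD90-positive libraries were assigned to its protein-coding transcript. Has2, the synthase of long hyaluronan chains in many fibroblasts, had 18.6, 37.6, 30.5, 16.9 and 6.43 CPM in CD90-negative libraries and 28.7, 45.0, 45.0, 52.1 and 25.1 CPM in CD90-positive libraries. Pools 2 and 3 made the groups overlap (log2 fold -0.99, SE 0.26, adjusted p = 0.0355), and leaving out pool 1, 4 or 5 ended the call, with adjusted p of 0.0886, 0.114 and 0.0738.

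Has3 was the 1 gene called higher. It had 3.89, 4.46, 2.61, 3.95 and 7.94 CPM in the CD90-negative libraries of pools 1 to 5, against 1.44, 0.595, 0.844, 1.63 and 2.55 CPM in the CD90-positive libraries. The lowest CD90-negative value, in pool 3, was above the highest CD90-positive value, in pool 5 (log2 fold 1.76, SE 0.50, adjusted p = 0.0470). The call was lost in each fit that left out 1 pool, with log2 folds from 1.49 to 1.85 and adjusted p from 0.0836 to 0.137. Reads of Has3 may include reads of Chtf8, an abundant gene on the other strand with which it shares 352 of 6380 exon bases, because no source used here gives the strand setting of the quantification. Has3 held 13.7% ± 10.3 of hyaluronan synthase TPM in CD90-negative libraries and 2.58% ± 3.84 in CD90-positive libraries, while the sum of the 3 synthases was 74.3 ± 35.7 TPM in CD90-negative and 147 ± 41.8 TPM in CD90-positive libraries.

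Breakdown of hyaluronan was represented by 3 genes, with 0 called by edgeR and 1, Cemip, at an unadjusted p under 0.05. Cemip, which binds hyaluronan and promotes its cleavage, was lower in 5 of 5 pools with separate groups (4.80 ± 4.75 CPM in CD90-negative and 16.9 ± 6.24 CPM in CD90-positive libraries, log2 fold -2.60, adjusted p = 0.0653). It was called by DESeq2 and limma-voom (adjusted p = 7.85e-05 and 0.0203) and without pool 4 (-3.29, adjusted p = 0.0297). Hyal1, a lysosomal hyaluronidase, and Hyal2, its relative at the cell surface, had log2 folds of 0.36 and 0.25 (adjusted p = 0.684 and 0.700). Hyal1 shares 1920 of its 3777 exon bases with Naa80 on the same strand, so its counts are uncertain.

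Within-pool ratios differed among pools. The median log2 ratio of CPM over the 43 genes was -0.57, -0.84, -0.38, -1.16 and -0.997 in pools 1 to 5, beside medians of all genes between -0.06 and 0.11. Fibroblast markers gave medians of -2.31, -2.85, -0.73, -1.80 and -3.45 in the same pools. Pool 3 was thus nearest to 0 for both lists. Its CD90-negative library was the highest of its group for 20 of the 43 genes, a count that was not made over all genes. The part of fibroblast content in the ratios was not tested.

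**Figure D4:**
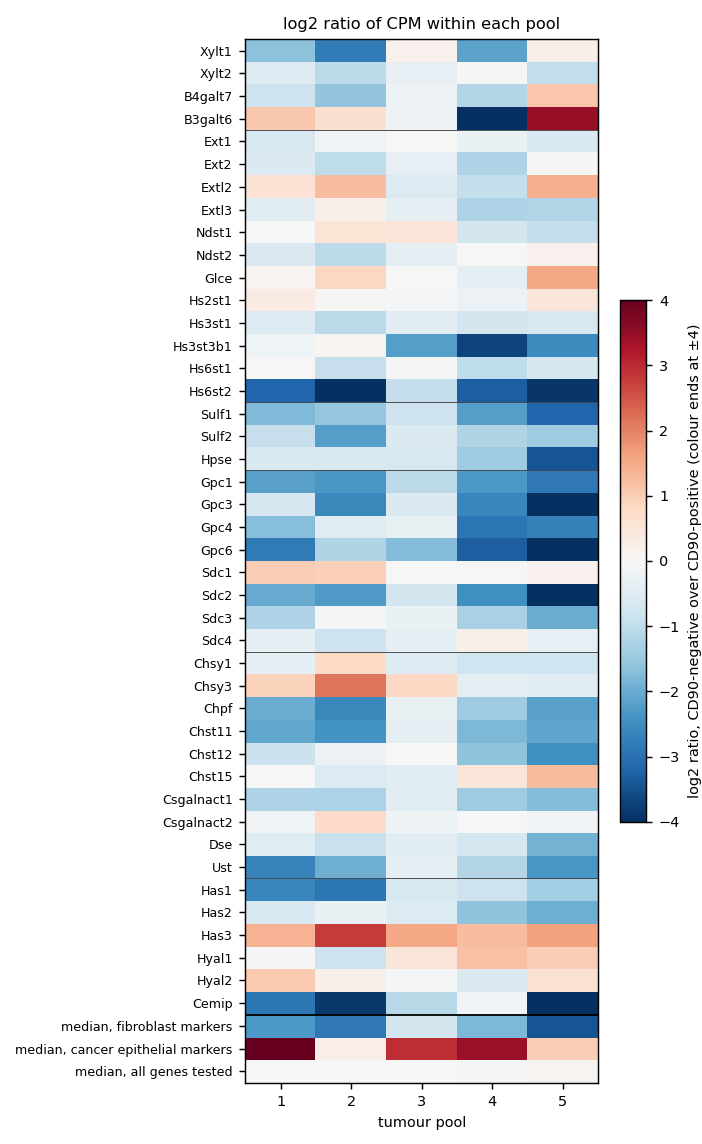
Log2 ratio of CPM (CD90-negative over CD90-positive) of the 43 genes in each tumour pool, with the medians of fibroblast markers, cancer epithelial markers and all genes tested below the heavy line. Blue is lower and red higher in CD90-negative libraries, the colour ends at ± 4, and pool 3 has the palest column, with a median of -0.38.

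Ordered by level on the TPM scale, Sdc4 came first in both groups, above Sdc1 in CD90-negative libraries and above Sulf1 in CD90-positive libraries. In CD90-negative libraries Sdc1 (360 ± 50.9 TPM) was followed at a distance by Ext1 (84.5 ± 17.3 TPM), Sulf1 (81.7 ± 44.0 TPM) and Ndst1 (77.2 ± 27.9 TPM), which did not differ beyond their spread. In CD90-positive libraries Sulf1 (259 ± 31.1 TPM) and Sdc1 (242 ± 64.8 TPM) likewise lay within each other's spread, followed by Gpc1 (148 ± 23.3 TPM), Sulf2 (132 ± 26.9 TPM), Chst11 (113 ± 31.1 TPM), Hs3st1 (104 ± 25.8 TPM), Ext1 (98.3 ± 20.5 TPM) and Has1 (95.8 ± 34.6 TPM). Gpc1 ranked 12 of 45 in CD90-negative libraries and 4 of 45 in CD90-positive libraries. Hs6st2 ranked 37 in CD90-negative and 23 in CD90-positive libraries. The lowest levels in both groups belonged to Hs3st3b1, Chst3 and Hs3st3a1, each at most 0.780 TPM on average.

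Promoters were searched for 6 short motifs because several of these genes were lower together. RefSeq promoter sequence (build GRCm38.p6, up to 250 bases before the start, both strands) was at hand for 33 of the 45 genes and 9 of the 15 called lower. The cyclic AMP response element (CRE) TGACGTCA was present in 2 of these 9, Chpf and Has1, in 3 of the 33, and in 1.77% of 27025 genes. A TATA box with the letters TATAAA was present in Hs6st2 and Sulf2, in 3 of the 33 and in 14.3% of all genes. The GC box GGGCGG was in 6 of the 9, in 27 of the 33 and in 35.4% of all genes. The CCAAT box was in 4 of the 9, in 13 of the 33 and in 37.5% of all genes, and the TEAD motif CATTCC in 1 of the 9, in 6 of the 33 and in 14.4%. The AP-1 motif TGANTCA was in 0 of the 9, in 1 of the 33 and in 7.82%. A gene with several annotated starts was counted where any of them held the motif. A match of letters is a description and not a binding site. The 150 bases before the start are shown for 3 genes called lower, 5′ to 3′ on the minus strand that each gene is on. The CRE letters of Has1 and Chpf and the TATAAA letters of Hs6st2 are in capitals. Sulf2, which also held TATAAA, is not shown. Has1 lies at chr17:17855189-17855338, Chpf at chr1:75479472-75479621 and Hs6st2 at chrX:51681603-51681752, and counted from the start of the transcript the capitals run from -83 to -76 in Has1, from -86 to -79 and -41 to -34 in Chpf, and from -55 to -50 in Hs6st2. Hs6st2 has 2 annotated starts, and the 150 bases before the other one, at chrX:51680478-51680627, held neither the TATAAA nor the CRE letters.
Has1: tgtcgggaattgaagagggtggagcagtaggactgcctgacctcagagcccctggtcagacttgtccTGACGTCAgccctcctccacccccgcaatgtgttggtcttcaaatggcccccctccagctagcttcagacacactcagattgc
Chpf: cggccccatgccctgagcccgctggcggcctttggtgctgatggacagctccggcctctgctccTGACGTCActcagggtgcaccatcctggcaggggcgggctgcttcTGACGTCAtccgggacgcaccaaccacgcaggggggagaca
Hs6st2: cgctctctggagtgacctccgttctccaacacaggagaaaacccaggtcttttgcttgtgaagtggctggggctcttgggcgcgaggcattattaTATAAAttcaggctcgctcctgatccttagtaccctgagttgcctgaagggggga
Fitted levels of these genes were 3.16-fold, 3.26-fold and 9.14-fold lower in CD90-negative libraries for Has1, Chpf and Hs6st2.

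Other genes of the pathway, from a list of 52 that supply precursors, make further steps, bind hyaluronan or break chains down, gave 4 called higher and 4 called lower of 41 tested, with a median log2 fold of -0.24. Over all genes 5.83% were called higher and 7.05% lower, so these counts lie near the background, and the genes below are described one by one, not as a change of the list. Among the 14 genes of precursor supply, 2 rose and 1 fell. Slc26a2, the plasma membrane transporter that brings in sulfate for all sulfated chains, had 165, 88.9, 128, 109 and 140 CPM in the CD90-negative libraries of pools 1 to 5, against 24.8, 15.6, 25.8, 52.6 and 55.6 CPM in the CD90-positive libraries. The groups were separate (log2 fold 1.99, SE 0.27, adjusted p = 0.00346), and the call held in each fit that left out pools. Slc35d1, which carries nucleotide sugars for chondroitin into the Golgi and endoplasmic reticulum, had 28.4, 33.8, 20.4, 13.0 and 18.3 CPM in CD90-negative libraries and 12.5, 10.7, 12.4, 12.8 and 10.9 CPM in CD90-positive libraries (log2 fold 0.87, SE 0.25, adjusted p = 0.0498). Its call ended without pool 1, 2, 3 or 5, with adjusted p from 0.0798 to 0.195. Gfpt2, 1 of the enzymes of the first step of the hexosamine pathway, fell, with 49.7, 22.0, 218, 85.1 and 12.1 CPM in CD90-negative libraries against 208, 145, 275, 158 and 114 CPM in CD90-positive libraries. The CD90-negative library of pool 3 lay inside the CD90-positive range (log2 fold -1.85, SE 0.43, adjusted p = 0.0304), and the call ended without pool 1, 2 or 5 (adjusted p = 0.106, 0.0793 and 0.0572). Gfpt1, of the same step, was not called (log2 fold 0.17, adjusted p = 0.588). It averaged 77.5 CPM in CD90-negative and 68.4 CPM in CD90-positive libraries.

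Cd44, the main hyaluronan receptor, rose modestly, with 337, 341, 272, 310 and 362 CPM in CD90-negative libraries and 159, 203, 238, 222 and 220 CPM in CD90-positive libraries. The groups did not overlap (log2 fold 0.64, SE 0.15, adjusted p = 0.0238), and the call was lost without pool 1, 2, 4 or 5 (adjusted p from 0.0648 to 0.130). Ndst3, an N-deacetylase and N-sulfotransferase, had 3.24, 15, 7.40, 7.80 and 3.25 CPM in CD90-negative libraries and 0.745, 0, 0.196, 0.553 and 0 CPM in CD90-positive libraries. The log2 fold was 4.98 (SE 1.13, adjusted p = 0.0230), and the call ended without pool 3 or 4 (adjusted p = 0.0587 and 0.0563). Protein-coding transcripts took 25.8% of Ndst3 counts in CD90-negative and 61.7% in CD90-positive libraries, and Ndst3 held 9.52% ± 3.36 of the TPM of its family in CD90-negative libraries against 0.344% ± 0.407 in CD90-positive libraries.

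Tgfbr3, the part-time proteoglycan betaglycan that presents TGF-beta, fell, with 33.0, 15.2, 95.8, 38.0 and 10.0 CPM in CD90-negative libraries against 106, 108, 112, 65.6 and 57.4 CPM in CD90-positive libraries. The overlap came from pool 3 (log2 fold -1.61, SE 0.39, adjusted p = 0.0327; call lost without pool 1, 2 or 5, with adjusted p of 0.115, 0.0773 and 0.0856). Hexa, a lysosomal hexosaminidase subunit, was the 1 of 12 breakdown genes that fell (14.7 CPM on average in CD90-negative and 29.9 CPM in CD90-positive libraries, log2 fold -1.06, adjusted p = 0.00661). Chpf2, another chondroitin polymerase cofactor, averaged 17.7 CPM in CD90-negative and 30.6 CPM in CD90-positive libraries, with separate groups (log2 fold -0.79, adjusted p = 0.0244, and from 0.0553 to 0.0802 without pool 1, 2, 4 or 5).

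**Figure D5:**
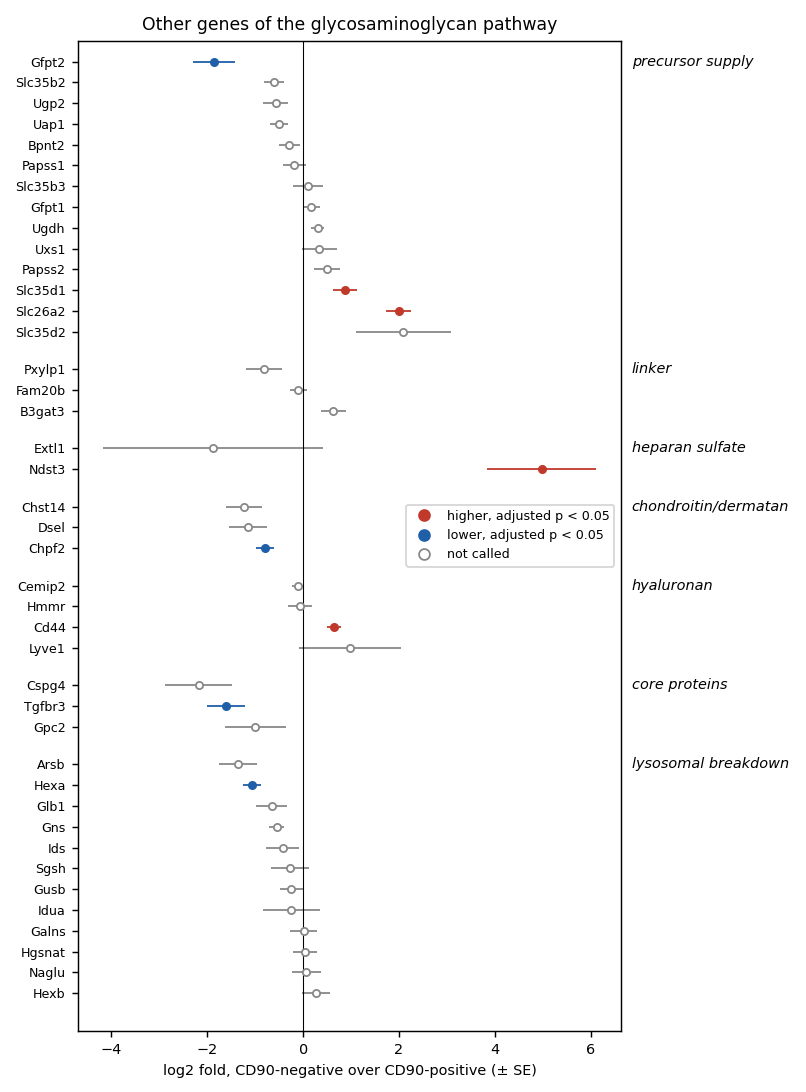
Log2 fold (CD90-negative over CD90-positive, ± SE, 5 pools) of the 41 other pathway genes tested, grouped by role. The 4 filled points right of 0 are Slc35d1, Slc26a2, Ndst3 and Cd44, and the 4 left of 0 are Gfpt2, Chpf2, Tgfbr3 and Hexa.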

How the data were processed

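RNA-seq of 5 CD90-negative and 5 CD90-positive myCAF libraries was analysed. Libraries were made with a low-input stranded kit, per the labels' protocols. The authors deposited estimated counts and TPM per transcript, with Salmon (version 1.9.0) and the builds GRCm39 and mm39 credited to the submitters' processing notes. No source used here gives the annotation release or the strand setting. The labels name no molecular identifiers, so counts may overstate the molecules sampled.

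Transcripts were matched without version to GENCODE M21 (GRCm38), used for names, biotypes and exon overlaps only, and 133666 of 144584 matched. The 10918 others held 3.63% to 12.1% of a library's counts. Estimated counts were summed per gene and rounded to whole numbers. TPM were summed per gene and rescaled over nuclear protein-coding genes, for description only.

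The test was edgeR's robust quasi-likelihood fit (edgeR 4.0.16, R 4.3.3) after TMM scaling and filterByExpr at a minimum count of 10, with the pool as a block, and p-values were Benjamini-Hochberg adjusted over 15378 genes. P-values cover the spread between pools. The pairing comes from the animal numbers in the titles, which both fractions of a pool share; deviations of the partners from their group means correlated by 0.06, 0.00, 0.46, 0.03 and 0.19. No libraries of a group agreed within counting noise (chi-square per degree of freedom 39.2 to 1605). Library measures were compared by exact sign flips over 5 pools. The steps were tested on simulated data.

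Per-library values are given for every called gene and, in classes with fewer than 2 called, for the 2 of highest mean CPM over the 10 libraries. Of the other pathway genes, those called are named, and Gfpt1 is given beside Gfpt2. The members, gene lists and most settings were chosen with earlier results of these data known. Alternatives were a fit without the block, relative log expression size factors, no or a stricter filter (minimum count of 30), DESeq2 1.42.0, limma-voom 3.58.1, mitochondrial genes left out, the mitochondrial rRNA share as a covariate, pools left out and a threshold of 0.01; protein-coding nuclear genes alone were tried after the data were seen.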

Additional observations from a re-analysis of the deposited data

Results flagged for a closer look

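CPM of 86 groups of 5 libraries (43 genes in each fraction) were searched for a library far from the other 4, and 7 were found. The search used CPM and not their logarithms. Its chance rate of about 1 in 20 groups holds for normally distributed values, which was not tested for CPM. The 7 are therefore a description and are not set against that rate. In the CD90-negative library of pool 3, Hs6st2 stood at 6.32 CPM with the other CD90-negative libraries between 1.61 and 2.78, Sdc2 at 21.5 CPM with the others between 1.88 and 7.33, Chst11 at 120 CPM with the others between 17.3 and 37.1, and Ust at 10.8 CPM with the others between 1.96 and 4.17. Each of these 4 values was the highest of its group and lay towards the CD90-positive range, in the library with the most fibroblast marker RNA of its group. Hyal1 reached 12.1 CPM in the CD90-negative library of pool 5, with the others between 2.28 and 3.20. Among CD90-positive libraries, Hs6st1 was highest in pool 5 (35.8 CPM, the others 24.3 to 27.5) and Chst12 was lowest in pool 3 (19.6 CPM, the others 27.4 to 28.6). No cause of these values was tested.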

How the results depend on the processing

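All 16 called genes kept their direction in every alternative fit. The count of called genes moved more. For glycosaminoglycan genes lower, glycosaminoglycan genes higher, other pathway genes and all genes, where the fit of all pools called 15, 1, 8 and 1980, no replicate block gave 8, 0, 6 and 965. The mitochondrial rRNA covariate gave 0, 0, 0 and 0 (edgeR; 2, 1, 2 and 882 at an unadjusted p under 0.05), leaving out pools 4 and 5 gave 2, 0, 1 and 541, and a threshold of 0.01 gave 7, 0, 2 and about 7.0e2. DESeq2 gave 19, 1, 14 and 3452, and no filter 21, 0, 11 and 2934. Leaving out 1 pool gave 5 to 18, 0, 3 to 7 and 675 to 2019, with pool 1 the lowest and pool 3 the highest. Each such fit has fewer samples than the fit of all pools, and no cause of these differences was tested. Size factors, limma-voom, the stricter filter, mitochondrial genes left out and protein-coding nuclear genes alone stayed within 14 to 16, 1, 8 to 9 and 1980 to 2303. Of 15 alternatives that refit the genes, the blocked call held in 14 for Sulf1, Gpc1 and Slc26a2, in 13 for Hs6st2, Sulf2 and Hexa and in 6 for Has3. The pairing check is given with the methods; without the block the calls of Hs3st1, Gpc4, Chst11, Dse, Ust, Has1, Has2, Has3, Gfpt2 and Tgfbr3 ended. Directions turned for genes that were not called. With the covariate they were Xylt1 1.47, B4galt7 1.46, Ext2 0.68, Ndst1 0.16, Hs6st1 0.082 and Csgalnact2 -0.15. With limma-voom they were Ndst1 0.032 and Chst15 -0.065, and with no block Csgalnact2 -0.0071. Leaving out 1 pool gave Csgalnact2 -0.13 to 0.12, Ndst1 -0.28 to 0.079, B3galt6 -0.33 to 1.11 and Chst15 -0.15 to 0.31, and leaving out pools 4 and 5 turned Ndst1 (0.33), Chst15 (-0.37) and Hyal1 (-0.18). Depth limits the weakest genes, since Has3 and Hs3st3b1 rest on few reads per library.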
